A study of Drosophila melanogaster with 6 samples.

Results

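The transcripts described are 8 protein-coding genes of Drosophila melanogaster known for their expression in the larval fat body: Lsp1alpha, Lsp1beta, Lsp1gamma, Lsp2, Fbp1, Fbp2, apolpp and fon. They were taken by symbol from a count table of 17609 genes, and all 8 were among the 9417 genes with enough counts to be tested. The libraries hold total RNA of eye-antennal imaginal discs, taken from larvae in the third instar and raised at 25°C. The 6 libraries were 3 biological replicates of ey-Gal4 with UAS-dTet, a pairing of an eye-field driver with a transgene made to overexpress the fly Tet dioxygenase, and 3 of ey-Gal4 with w1118, the control without UAS-dTet (here dTet and control). Both groups carried ey-Gal4. The driver acts in cells of the eye field, and the labels do not give the sex of the larvae or how many were pooled.

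The fat body serves the larva as liver and adipose tissue do in mammals. As larvae approach the end of feeding it secretes storage proteins called hexamerins into the hemolymph and later takes them back up, so that their amino acids can be used to build the adult. It also makes the lipoprotein that carries lipids through the hemolymph and proteins of the hemolymph clot. Transcription of the hexamerin and Fbp genes is known to depend on larval age and on the steroid hormone ecdysone. The eye-antennal disc is an epithelium in which these genes are not known as markers.

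The labels were checked first with the overexpressed gene. Tet counts, which do not part the endogenous gene from a transgene, gave 364.5, 457 and 416 CPM in dTet replicates 1, 2 and 3 and 316, 348 and 385 CPM in control replicates 1, 2 and 3, with overlapping groups (log2 fold change 0.24, edgeR adjusted p = 0.244). The Tet counts thus did not pass as a check of the dTet label. CPM is a gene's read-pair count relative to the size of its scaled library. The eye color gene w was at 2.57, 3.44 and 6.11 CPM in dTet replicates 1, 2 and 3, against 64.0, 52.7 and 50.4 CPM in control replicates 1, 2 and 3, and so separated the groups. Genes that specify the eye were lower in dTet as well, so w does not by itself check the dTet label.

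The tissue of the label was checked with 14 genes of the eye-antennal disc. All 14 were detected and tested, and 5 rose and 9 fell (edgeR). Genes that specify the eye were far lower in dTet discs. The retinal determination genes so, eya and ey fell 14.5-fold, 13.6-fold and 5.38-fold, and gl, which acts in photoreceptor differentiation, fell 100.8-fold (edgeR adjusted p = 1.89e-06, 2.04e-06, 4.51e-06 and 3.46e-06). The level of eya was 25.6, 39.2 and 31.8 CPM in dTet replicates 1, 2 and 3, against 474, 451 and 391.5 CPM in control replicates 1, 2 and 3. Genes of the antennal region and head rose, ct 1.87-fold, Dll 1.90-fold and al 2.53-fold (edgeR adjusted p = 0.000422, 0.00077 and 0.000944). The dTet discs thus differed from control discs in the makeup of their own transcripts, and the part of this in the levels of the 8 transcripts was not tested. The homeobox gene hth, which rose 1.54-fold, was at 606, 619 and 665 CPM in dTet replicates 1, 2 and 3, against 398, 412 and 421 CPM in control replicates 1, 2 and 3 (edgeR adjusted p = 0.0048). Counted read pairs were between 16395675 and 20242356 per library. The summed counts of the 8 fat body transcripts were 27154, 12481 and 9957 in dTet replicates 1, 2 and 3, against 41494, 12044 and 47880 in control replicates 1, 2 and 3. In RNA from whole tissue, fewer cells of a type and less RNA per cell cannot be told apart.

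None of the 8 transcripts passed the test between dTet and control discs (edgeR quasi-likelihood test with Benjamini-Hochberg adjustment over 9417 genes, adjusted p from 0.1154 to 0.563). Of all tested genes 11.4% did, 3.77% being higher and 7.64% lower in dTet. At an unadjusted p under 0.05 edgeR gave 1 of the 8, Fbp2, where 28.8% of all tested genes stood below that value. DESeq2 and limma-voom each called 0 of the 8, with 1 at an unadjusted p under 0.05 in each. All 8 log2 fold changes were negative, with a median of -1.02, while the median over all tested genes was -0.02, with 4883 of 9417 negative. The groups overlapped for all 8 genes, so that 0 of 8 had groups apart, where 32.6% of all tested genes did, and 17.6% had every dTet library below every control. A p that misses the threshold does not show that the groups are alike, and the 95% intervals below are wide.

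**Figure D1:**
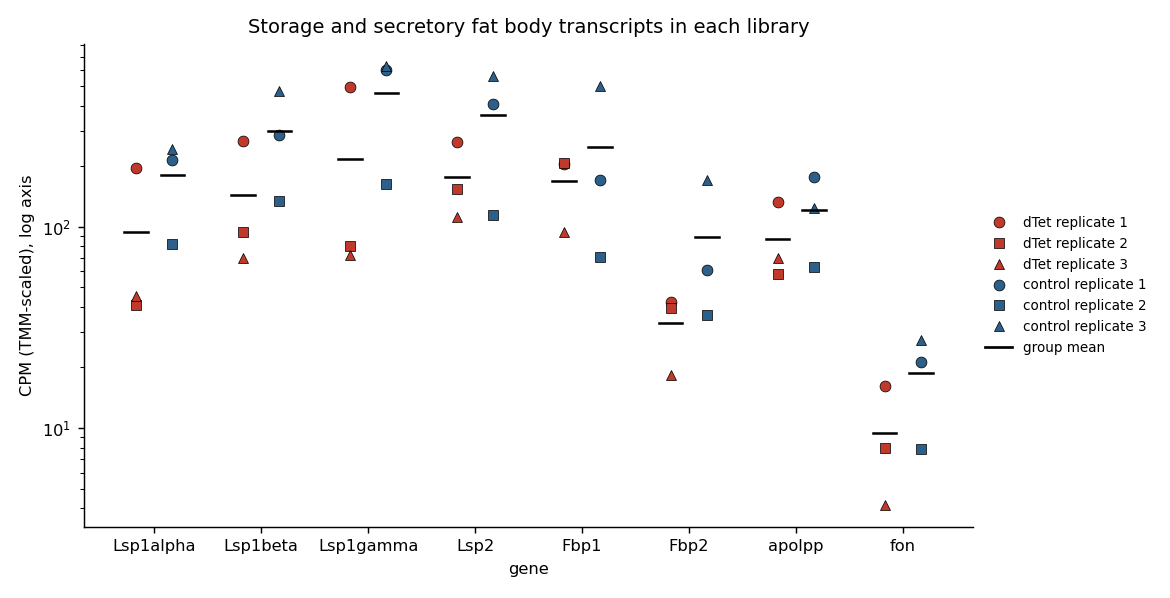
CPM on a log axis for each of the 8 genes, with dTet libraries in red to the left of control libraries in blue, symbols for replicates 1, 2 and 3, and black lines for group means. Control replicate 2 was the lowest control for all 8 genes, and dTet replicate 1 was the highest dTet library for 7 of them.

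The 3 genes of larval serum protein 1 lie on 3 chromosomes. Lsp1alpha is on X at 12490291 to 12492982, Lsp1beta on 2L at 898500 to 901316 and Lsp1gamma on 3L at 66430 to 68995 (dm6, all on the plus strand), each with 1 intron. Their products assemble into a hexamer, which is the main storage protein of the late larva. No exon of these genes is shared with another gene of the annotation. Because the 3 genes are related in sequence, read pairs that map to several of them were not counted, which can only lower the values given here.

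Lsp1alpha stood at 196, 40.9 and 45.6 CPM in dTet replicates 1, 2 and 3, against 216, 82.6 and 245 CPM in control replicates 1, 2 and 3. The level of dTet replicate 1 lay near the higher controls, and the other dTet libraries lay below every control. Group means of 94.3 ± 88.5 CPM in dTet and 181 ± 86.5 CPM in control (SD, n = 3 each) gave a fitted log2 fold change of -0.94, with SE 0.60 and a 95% interval from -2.29 to 0.40 (edgeR adjusted p = 0.328).

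Lsp1beta had the same order of libraries as Lsp1alpha, save that dTet replicate 3 and not dTet replicate 2 was the lowest. It was measured at 267, 94.0 and 70.2 CPM in dTet replicates 1, 2 and 3 and at 286, 134 and 474 CPM in control replicates 1, 2 and 3. Its fitted level was 2.07-fold lower in dTet, but the interval of the log2 fold change ran from -2.26 to 0.16 (edgeR adjusted p = 0.230). That value was -1.87 without dTet replicate 1 and -0.55 without control replicate 3.

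Lsp1gamma gave the most counts of the 8 genes in dTet replicate 1 and in every control, and had the largest SD of log2 CPM within groups. Its levels were 496, 80.4 and 72.6 CPM in dTet replicates 1, 2 and 3 and 599, 162 and 630 CPM in control replicates 1, 2 and 3. The highest dTet library was 6.84 times the lowest, and the highest control 3.88 times the lowest. The log2 fold change between groups, -1.10, had an SE of 0.74 and a 95% interval from -2.77 to 0.57 (edgeR adjusted p = 0.357).

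Lsp2 encodes a second hexamerin, which does not enter the larval serum protein 1 hexamer. It is a gene without introns on 3L at 12129393 to 12131869, plus strand, and an antisense RNA gene covers 84.6% of its exon on the other strand. The counting used strand, and that antisense gene had 4 to 41 counts per library. Lsp2 was at 265, 154 and 112 CPM in dTet replicates 1, 2 and 3, against 406, 114.6 and 559 CPM in control replicates 1, 2 and 3. Control replicate 2 lay within the range of the dTet libraries. The log2 fold change was -1.03 (SE 0.50, 95% interval -2.15 to 0.10, edgeR adjusted p = 0.211).

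Fbp1 encodes the receptor that returns larval serum protein 1 to the fat body, and it responds to ecdysone. The gene lies on 3L at 14094589 to 14098053, minus strand, and has no intron. It was measured at 206, 208 and 93.7 CPM in dTet replicates 1, 2 and 3 and at 172, 71.0 and 503 CPM in control replicates 1, 2 and 3. It was the only gene of the 8 that was higher in dTet replicate 2 than in dTet replicate 1, though by little, and the highest control was 7.09 times the lowest. Its log2 fold change of -0.56 (95% interval -1.88 to 0.77, edgeR adjusted p = 0.563) turned to 0.48 without control replicate 3.

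Fbp2 encodes a fat body protein related in sequence to alcohol dehydrogenase. It lies on 2L at 9426784 to 9427917, plus strand, with 1 intron, and 48 of its 1074 exon bases are shared with CG42847 on the same strand, where pairs that overlap both genes are not counted. The levels were 42.5, 39.4 and 18.4 CPM in dTet replicates 1, 2 and 3 and 60.7, 36.2 and 170 CPM in control replicates 1, 2 and 3. Control replicate 3 lay far above every other library, and control replicate 2 lay between the dTet libraries. Among the 8 genes Fbp2 had the fold change furthest from 0, with a log2 fold change of -1.42 (SE 0.52, 95% interval -2.59 to -0.24). Its unadjusted p of 0.0234 became 0.1154 after adjustment in edgeR, and 0.0331 without control replicate 1, 0.0420 without control replicate 2 and 0.0226 with no filter on low counts. Without control replicate 3, which held the highest level, the log2 fold change was -0.54 (edgeR adjusted p = 0.444).

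The secreted products of the last genes serve transport and clotting rather than storage. apolpp encodes the precursor of the apolipophorins, the protein scaffold of the main hemolymph lipoprotein, and lies on chromosome 4 at 1060969 to 1077273, plus strand, with 9 introns. It was at 133, 58.2 and 70.2 CPM in dTet replicates 1, 2 and 3, against 176.5, 63.0 and 125 CPM in control replicates 1, 2 and 3. The highest library was 3.03 times the lowest, the smallest such range of the 8, against 9.26 times for Fbp2, the largest, and was the only one highest in control replicate 1. Its log2 fold change was -0.48 (95% interval -1.34 to 0.38, edgeR adjusted p = 0.439).

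fon encodes fondue, a protein of the hemolymph clot, and lies on 2L at 19383138 to 19386205, minus strand, with 4 introns. Its levels, the lowest of the 8, were 16.2, 7.98 and 4.15 CPM in dTet replicates 1, 2 and 3 and 21.2, 7.86 and 27.5 CPM in control replicates 1, 2 and 3. The order of its libraries was that of Lsp1beta, save that control replicate 2 fell just below dTet replicate 2. The log2 fold change was -1.005 (SE 0.53, 95% interval -2.195 to 0.185, edgeR adjusted p = 0.244).

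**Figure D2:**
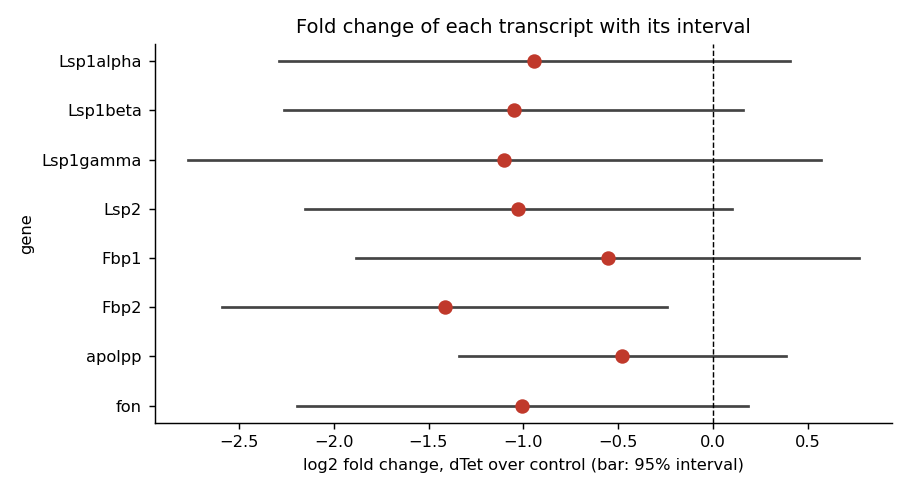
Log2 fold change of dTet over control for each of the 8 genes (points) with its 95% interval (bars) from the edgeR fit. All points lie below 0, and 7 of the 8 intervals include 0, the exception being Fbp2 (-2.59 to -0.24), which did not pass after adjustment.

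Leaving out single libraries changed some of these calls. Without dTet replicate 1, Lsp1alpha (log2 fold change -2.08, edgeR adjusted p = 0.0261) and Lsp1gamma (-2.61, 0.0270) passed the test. Without control replicate 2, Lsp2 (-1.46, 0.0251) and Fbp2 passed, and without control replicate 1 Fbp2 passed. Neither dTet replicate 2, dTet replicate 3 nor control replicate 3 brought a call of the 8 when it was left out. Of all genes, 772 of 9717 tested were called without dTet replicate 1 and 714 of 9722 without control replicate 2. Without control replicate 1, where Fbp2 was the only member called, 3231 of 9693 genes were called. Over the 6 libraries left out in turn, the log2 fold change ranged from -2.08 to -0.58 for Lsp1alpha, from -2.61 to -0.69 for Lsp1gamma and from -1.46 to -0.56 for Lsp2. It ranged from -1.01 to 0.48 for Fbp1, from -1.80 to -0.54 for Fbp2, from -0.93 to -0.13 for apolpp and from -1.65 to -0.63 for fon. The libraries removed in the cases with a call include the dTet library with the highest summed level and the control library with the lowest.

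The summed level of the 8 transcripts was 1623, 682 and 487 CPM in dTet replicates 1, 2 and 3, against 1937, 672 and 2733 CPM in control replicates 1, 2 and 3. Thus dTet replicate 1 was close to control replicate 1, and control replicate 2 lay between dTet replicates 2 and 3. The group means were 931 ± 608 CPM in dTet and 1781 ± 1040 CPM in control (SD, n = 3 each), a ratio of 0.523, which was 0.328 without dTet replicate 1 and 0.714 without control replicate 3. Between the highest and the lowest library of the same genotype the sum differed 3.34-fold in dTet and 4.07-fold in control.

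Within a genotype the transcripts varied largely, though not wholly, together. Every one of the 8 was higher in dTet replicate 1 than in dTet replicate 3, by a median of 1.59 on the log2 scale. The median over all tested genes was 0.01, a value that the scaling of the libraries holds near 0. Likewise all 8 were lower in control replicate 2 than in control replicate 1 and lower than in control replicate 3, for the last by a median log2 difference of -1.89. Between dTet replicates 2 and 3 the genes were split, 6 being higher in dTet replicate 2 and 2 higher in dTet replicate 3. In 7 of 8 genes control replicate 3 was the highest of the 6 libraries, and in 5 of 8 dTet replicate 3 was the lowest. The Pearson correlation of each gene's log2 CPM with the mean centred profile of the other 7 over the 6 libraries, given as a description, was 0.985 for Lsp1beta, 0.984 for fon, 0.968 for Lsp2, 0.939 for Lsp1gamma, 0.929 for Lsp1alpha, 0.858 for Fbp2, 0.835 for apolpp and 0.722 for Fbp1. These libraries share the tissue, the dissection protocol and 2 genotypes. The correlations take in the difference between groups as well as the differences within them.

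The spread of the 8 between replicates was above the median of all genes. The SD of log2 CPM within groups had a median of 0.965 over the 8 genes, with a range from 0.693 (apolpp) to 1.35 (Lsp1gamma), and a median of 0.228 over all tested genes. Of all tested genes 1260 (13.4%) had an SD at or above that of apolpp. The median SD of the 6299 tested genes whose mean CPM was at least that of fon was 0.171. Of these 6299 genes, 52 (0.826%), the 8 fat body transcripts included, had an SD at or above that of apolpp. These limits were taken from the 8 genes themselves and serve as a description only.

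**Figure D3:**
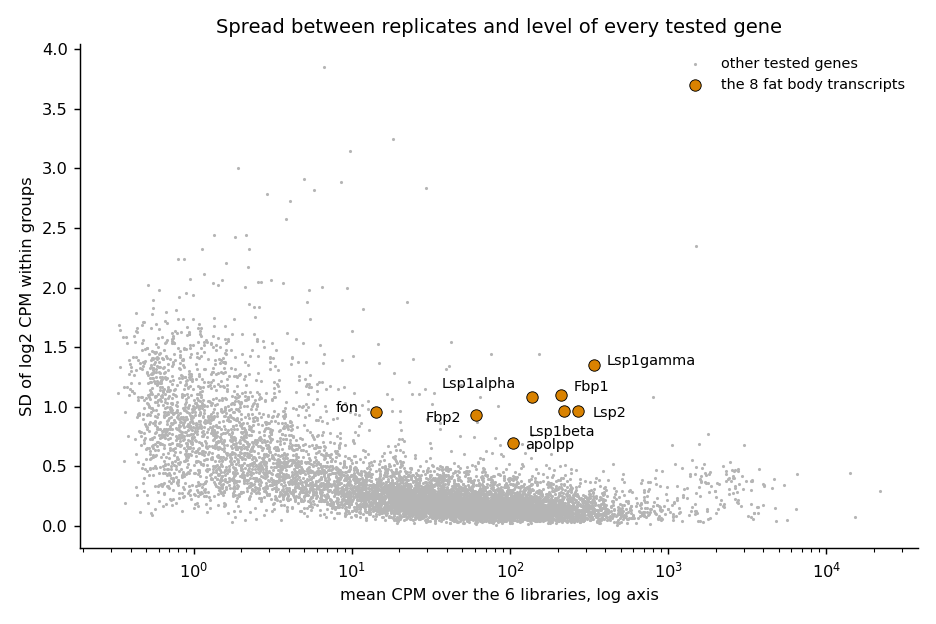
SD of log2 CPM within groups against mean CPM over the 6 libraries (log axis) for 9417 tested genes (grey) and the 8 fat body transcripts (orange). The 8 lie between 0.693 and 1.35, while the median of tested genes at or above the level of fon is 0.171.

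Levels per kilobase of exon allow the genes to be ranked against each other. In control discs the means were 185 ± 105 CPM per kilobase for Lsp1gamma, 145 ± 91.2 for Lsp2, 108 ± 62.1 for Lsp1beta, 82.9 ± 66.4 for Fbp2, 71.8 ± 65.3 for Fbp1, 69.0 ± 32.9 for Lsp1alpha, 10.3 ± 4.83 for apolpp and 8.29 ± 4.41 for fon (SD, n = 3). Neighbours in this order differed by less than their SDs, except that the 6 storage and Fbp genes stood above apolpp and fon in every library. Within single libraries the top place was held by Lsp1gamma in dTet replicate 1 and all 3 controls, and by Lsp2 in dTet replicates 2 and 3. The dTet means ranged from 86.6 ± 97.0 CPM per kilobase for Lsp1gamma to 4.15 ± 2.71 for fon (SD, n = 3). In dTet replicate 2 Lsp1gamma, at 32.1 CPM per kilobase, stood below Lsp2, Fbp1, Fbp2 and Lsp1beta.

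The 8 transcripts therefore did not keep fixed proportions. Fbp1 made up 12.7% of their summed counts in dTet replicate 1 (Wilson 95% interval 12.3 to 13.1), 30.45% (29.65 to 31.3) in dTet replicate 2 and 19.3% (18.5 to 20.1) in dTet replicate 3. Its shares in control replicates 1, 2 and 3 were 8.86% (8.59 to 9.14), 10.6% (10.04 to 11.1) and 18.4% (18.1 to 18.8). The intervals cover counting error only. Lsp1gamma had its lowest shares, 11.8% and 14.9%, in dTet replicates 2 and 3, and its highest, 30.6% and 30.9%, in dTet replicate 1 and control replicate 1. The ratio of Fbp1 to Lsp1gamma counts was 0.415, 2.58 and 1.29 in dTet replicates 1, 2 and 3, against 0.286, 0.438 and 0.799 in control replicates 1, 2 and 3, a 9.02-fold range. By contrast the ratio of Lsp1beta to fon counts stayed between 11.8 and 17.2 in all 6 libraries, a 1.46-fold range.

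**Figure D4:**
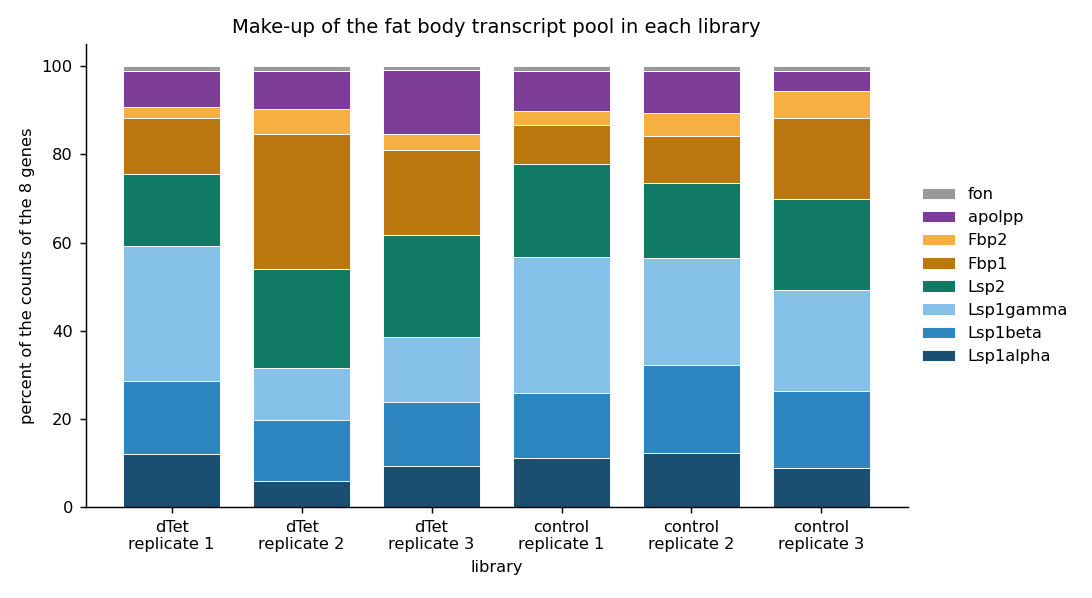
Percent of the summed counts of the 8 genes taken by each gene, with the 3 dTet libraries left of the 3 controls. Fbp1 takes 30.45% in dTet replicate 2 and 8.86% in control replicate 1, while fon takes about 1% throughout, between 0.854% and 1.17%.

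Ratios within a library do not depend on the summed level of the 8 transcripts, and all 28 pairs of the 8 genes were compared between groups. A single pair of the 28, Fbp1 to Fbp2, had groups that did not overlap. With no group difference, groups of 3 and 3 libraries are apart with probability 0.1, and 1 of 28 is not above that share. The ratio of Fbp1 to Fbp2 counts was 4.85, 5.27 and 5.10 in dTet replicates 1, 2 and 3, against 2.83, 1.96 and 2.96 in control replicates 1, 2 and 3. The dTet libraries agreed within 1.09-fold although their summed levels differed 3.34-fold, and the controls spread over 1.51-fold. The mean log2 ratio differed by 0.997 (exact two-sided permutation test, p = 0.1, adjusted p = 0.7 over 28 pairs). A p of 0.1 is the smallest that 3 against 3 libraries allow, so no pair could pass the threshold. The test thus cannot decide whether the ratio of Fbp1 to Fbp2 differed between groups. For the X-linked gene, the ratio of Lsp1alpha to the autosomal Lsp1beta was 0.734, 0.435 and 0.649 in dTet replicates 1, 2 and 3 and 0.755, 0.617 and 0.516 in control replicates 1, 2 and 3, with overlapping groups. The noncoding RNA roX1 of the male X chromosome was lower in dTet (598, 735 and 590.2 CPM in dTet replicates 1, 2 and 3, against 925, 856 and 989 CPM in control replicates 1, 2 and 3; log2 fold change -0.53, edgeR adjusted p = 0.0335). That call ended without dTet replicate 1 (0.127), dTet replicate 3 (0.158) or control replicate 3 (0.117), and its part in the level of Lsp1alpha was not tested. The other listed sex-linked markers, roX2, msl-2 and Sxl, did not pass (log2 fold changes -0.41, 0.09 and 0.01, edgeR adjusted p = 0.183, 0.716 and 0.953).

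The other genes of the fat body had smaller differences between replicates in the median. Of 36 listed, 30 were tested: 3 rose, 2 fell and 25 did not pass, beside the 11.4% called of all genes. Their median log2 fold change was 0.00 and their median SD within groups 0.303. The SD was above that of apolpp in 8 of these 30 genes, with a maximum of 1.45. GlyP and GlyS, which break down and build glycogen, rose 1.39-fold and 1.38-fold, and ACC, the first enzyme of fatty acid synthesis, rose 1.29-fold (edgeR adjusted p = 0.0159, 0.0495 and 0.0420). The lipase gene Lip4 fell 3.77-fold and the gluconeogenic gene Pepck2 fell 2.60-fold (edgeR adjusted p = 0.00177 and 0.0376). Except for Lip4 these calls ended when certain single libraries were left out, in 3 of 6 cases for GlyP and Pepck2 and 5 of 6 for ACC and GlyS. Of the most abundant, Desat1, a fatty acid desaturase, was at 317, 334 and 329.7 CPM in dTet replicates 1, 2 and 3 and 282, 289.6 and 258 CPM in control replicates 1, 2 and 3. Every dTet library lay above every control, but Desat1 did not pass (log2 fold change 0.24, edgeR adjusted p = 0.151). Obp99a stood at 708, 593 and 616 CPM in dTet replicates 1, 2 and 3 and 317, 506 and 435 CPM in control replicates 1, 2 and 3 (edgeR adjusted p = 0.0517). Several of these genes, such as Desat1 and ACC, serve lipid metabolism in most cells. The summed level of the 36 was 2121 to 2301 CPM in dTet and 1706 to 2190 CPM in control.

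Some listed fat body genes had too few counts to be tested: Adh, Gbp1, AkhR, to, Pepck1 and Yp1. Adh, an abundant larval fat body transcript, had 0, 0 and 0 counts in dTet replicates 1, 2 and 3 and 3, 11 and 3 in control replicates 1, 2 and 3. However, 93.9% of its exon bases are shared with Adhr on the same strand, where pairs are not counted, so this is no measure of Adh. The same holds for Pepck1, listed at 0 and covered wholly by CG45087. Gbp1, AkhR and to share no exon base with another gene. Gbp1 had 7, 0 and 0 counts in dTet replicates 1, 2 and 3 and 9, 2 and 19 in control replicates 1, 2 and 3. AkhR had between 1 and 10 counts per library, and the gene to had between 0 and 3. The yolk protein gene Yp1, a product of the adult female fat body, had no count in any library. Yp2 had 11, 28 and 1 counts in dTet replicates 1, 2 and 3 and 20, 30 and 17 counts in control replicates 1, 2 and 3.

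The genes whose pattern over the 6 libraries was most like the mean profile of the 8, among 1230 candidates of sufficient level and spread, were CG5953 (Pearson r 0.944), Cyp28d1 (0.905), CG34166 (0.893), Obp99b (0.885), CG17129 (0.873), CG15369 (0.861), TotA (0.856) and Cyp6g1 (0.852). The values describe these libraries and carry no test. Obp99b, an odorant-binding protein gene also on the fat body list, was at 153, 97.2 and 26.6 CPM in dTet replicates 1, 2 and 3 and at 103, 58.6 and 481 CPM in control replicates 1, 2 and 3. TotA, a stress-induced humoral factor secreted by the fat body, had 109, 76 and 2 counts in dTet replicates 1, 2 and 3 and 71, 8 and 639 counts in control replicates 1, 2 and 3. For both, dTet replicate 3 was the lowest library and control replicate 3 the highest. Between groups edgeR called 0 of the 8 like genes (adjusted p from 0.124 to 0.731), with 1 at an unadjusted p under 0.05. DESeq2 called 1 and limma-voom 0. Of all tested genes edgeR called 11.4%, with 28.8% at an unadjusted p under 0.05. The like genes were picked to follow the profile of the 8 in these same libraries, so these counts are not a separate result.

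Markers of other tissues that lie near the disc shared the order of libraries with the 8 transcripts in part. Ring gland genes, which make ecdysone, summed to 419, 235 and 203 CPM in dTet replicates 1, 2 and 3 and to 449, 629 and 335 CPM in control replicates 1, 2 and 3. In dTet this is the order of the summed fat body transcripts, while the highest of all, control replicate 2, was the control in which all 8 fat body transcripts were lowest. Of 7 tested, nvd fell 1.97-fold (edgeR adjusted p = 0.0154; 0.0676 and 0.0753 without dTet replicate 2 or 3, and 0.0531 without the control numbered 2) and 6 did not pass. The 10 listed salivary glue genes summed to 4.25, 1.26 and 18.8 CPM in dTet replicates 1, 2 and 3. In control replicates 1, 2 and 3 they summed to 47.7, 28.3 and 73.8 CPM, so the groups did not overlap. Of 6 tested, Sgs8 fell 10.1-fold and Eig71Ee 14.4-fold (edgeR adjusted p = 0.0072 and 0.0452), the call of Eig71Ee ending without any of 4 libraries. The abundant Sgs7 and Sgs5 did not pass (log2 fold changes -2.07 and -2.59, edgeR adjusted p = 0.155 and 0.0836). Among the controls the glue genes had the same order of libraries as the summed fat body transcripts, and in dTet they were highest in replicate 3, where those were lowest.

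Hemocyte markers, for the blood cells that adhere to discs, had in dTet the same order of libraries as the summed fat body transcripts, over a narrow range. They summed to 274, 271 and 257 CPM in dTet replicates 1, 2 and 3 and to 421, 523 and 485 CPM in control replicates 1, 2 and 3. Among the controls the order differed. Control replicate 2, the lowest control for all 8 fat body transcripts, was the highest for hemocyte markers. Of 11 tested, lz, PPO1 and PPO2, genes of the crystal cell lineage, fell 7.10-fold, 3.94-fold and 4.32-fold, and lz also acts in the eye disc. Hml, at 107, 91.2 and 88.3 CPM in dTet replicates 1, 2 and 3 and 98.8, 122 and 137 CPM in control replicates 1, 2 and 3, did not pass (edgeR adjusted p = 0.171), nor did crq (log2 fold change -0.08, 0.757). Of 15 muscle genes tested, bt, Mhc and Prm rose 2.08-fold, 2.04-fold and 2.325-fold. All 16 listed muscle genes summed to 1010 to 1460 CPM in dTet and 856 to 960.5 CPM in control. The call of Mhc ended without control replicate 3 and that of Prm without 4 single libraries. Of 7 collagen IV and basement membrane genes, which fat body and hemocytes both make, edgeR called 0, with 5 at an unadjusted p under 0.05, where DESeq2 called 4 and limma-voom 0. All 8 listed genes of this group, tested or not, summed to 2020 to 2098 CPM in dTet and 1654 to 1720 CPM in control. Of 6 antimicrobial peptide genes, 5 of trachea and 1 of gut, edgeR, DESeq2 and limma-voom each called 0, and edgeR had 0 at an unadjusted p under 0.05. All 14 listed antimicrobial peptide genes, tested or not, summed to 13.0, 132 and 3.18 CPM in dTet replicates 1, 2 and 3. The same sum was 1.63, 1.67 and 66.3 CPM in control replicates 1, 2 and 3.

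**Figure D5:**
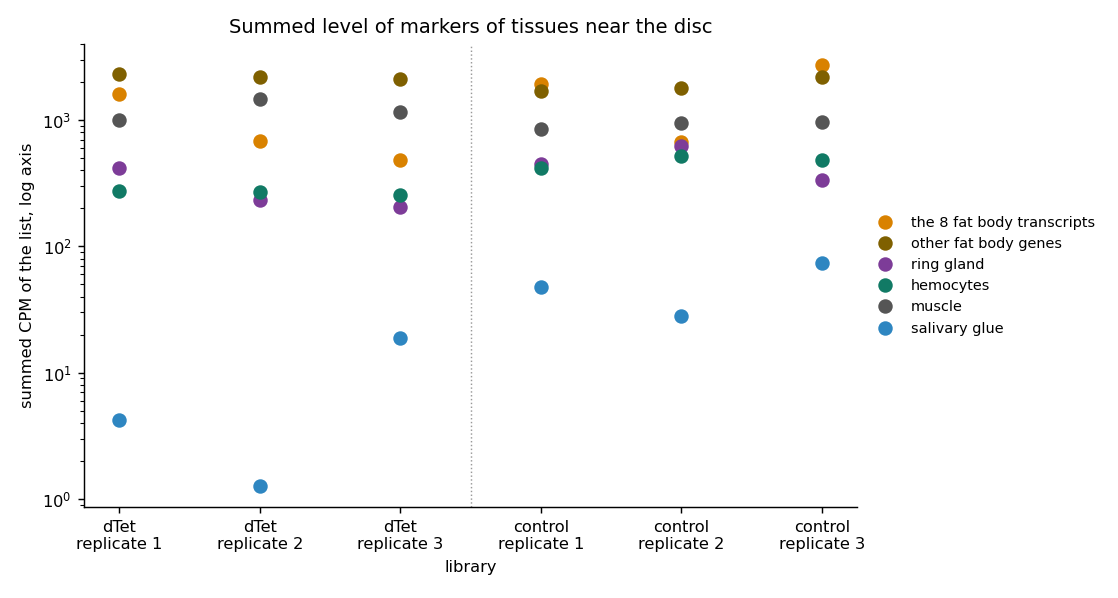
Summed CPM on a log axis of 6 marker lists in each library, dTet left of control. The 8 fat body transcripts (orange) range from 487 to 2733 CPM, ring gland genes are highest in control replicate 2 at 629 CPM, and glue genes lie between 1.26 and 73.8 CPM.

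Ecdysone response genes were listed because Fbp1 responds to the hormone. Of 20 tested, ImpE1, Hr4 and Eip78C rose 2.02-fold, 1.94-fold and 1.54-fold and Eip93F fell 6.32-fold (edgeR adjusted p = 0.00105, 0.00349, 0.0479 and 0.00282), and 16 did not pass. The call of Eip78C ended without any single library other than control replicate 1. The abundant ImpE2 and br had log2 fold changes of 0.28 and 0.27 and did not pass (edgeR adjusted p = 0.268 and 0.315). ImpE2, at 2267, 2578 and 2613 CPM in dTet replicates 1, 2 and 3 and 2452, 1858 and 1822 CPM in control replicates 1, 2 and 3, was highest in dTet replicate 3 and lowest in control replicate 3. The parts of fat body carried along with the discs, larval age and sex in the levels of the 8 transcripts were not tested.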

How the data were processed

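Per the file headers, the authors used featureCounts 2.0.6 with FlyBase release 6.45 to count read pairs per gene symbol (exon features, strand setting 2, only pairs whose mates both mapped). The submitters' processing notes also list HISAT2 2.2.0, FastQC 0.12.1 and the dm6 build. The deposited counts are whole numbers and were not normalized. Under that program's defaults, pairs that overlap several genes or map to several places are dropped. Libraries are stranded total RNA per the labels' protocols.

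Columns were tied to samples by genotype and replicate number. In R 4.3.3, genes were filtered with filterByExpr (9417 kept), scaled by TMM and tested by the quasi-likelihood test of edgeR 4.0.16, dTet against control, in a fit of all 6 libraries with no covariate. The Benjamini-Hochberg adjustment covered the whole set of tested genes, and the threshold was 0.05. Standard errors and 95% intervals were derived from each gene's F statistic. Levels are CPM of the TMM-scaled library; log2 CPM used a prior count of 2. The fit was tested on simulated data. Exon lengths are those of the table.

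The members, lists and tests were chosen with earlier results of these data known. Named genes were the 8 members, Tet and w, up to 4 called genes per direction in each list, the 3 most abundant of the fat body, hemocyte, glue and ecdysone lists, and the 8 genes most like the members' mean profile with a mean log2 CPM of at least 1 and an SD over libraries at least 0.5 times that of the profile; other names were chosen after their values were seen. The eye-antennal list served only as a check: 5 of its 14 genes rose and 9 fell. Of 4 sex-linked markers 1 fell. Alternatives were other scalings, filters and thresholds, DESeq2 1.42.0, limma-voom (limma 3.58.1), the replicate number as a block, and each library left out.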

Additional observations from a re-analysis of the deposited data

How the results depend on the processing

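Over 104 recomputed fold changes of the 8 transcripts, 97 kept direction and side of the threshold, 6 passed it and 1 reversed: Fbp1, at 0.48 without control replicate 3 and down to -1.01 without control replicate 2. Of the 8, 0 passed under other scalings, DESeq2, limma-voom, the filter at 1 CPM or an adjusted p of 0.01; 1, Fbp2, passed with no filter on low counts, and 0 to 2 when a library was left out. Genes called in all numbered 1074, but 1733 with DESeq2 (658 higher and 1075 lower) and 512 at an adjusted p of 0.01. With no filter on low counts 1401 of 13531 genes were called. With a library left out they numbered 560 (without control replicate 3) to 3231 (without control replicate 1). Of the other fat body genes 5 were called, but 8 with DESeq2, 1 at an adjusted p of 0.01 and 1 (without dTet replicate 3 or control replicate 3) to 10 (without control replicate 1) with a library left out. The causes were not tested.

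With the replicate number as a block, 902 genes, 0 of the 8 transcripts and 4 other fat body genes were called. At an unadjusted p under 0.05 edgeR gave 4 of the 8 with the block and 1 without it. For all genes that number was 2408 of 9417 with the block. Over all tested genes, correlations of same-numbered deviations were 0.03, 0.02 and -0.10, and not every library correlated best with its own number. Whether the numbers pair the libraries for the 8 transcripts was not tested. The ratio of summed group means, dTet to control, was 0.523, 0.538 on plain library totals, 0.542 without Lsp1gamma and, in an alternative chosen after seeing the data, 0.328 (without dTet replicate 1) to 0.714 (without control replicate 3) with a library left out. Per kilobase, Fbp1 made up 16.7% of the pool in dTet and 9.51% in control, against 20.8% and 12.6% of counts. All 8 like genes were the same with a prior count of 0.5. The smallest interval of the 8, that of apolpp, spans log2 values from -1.34 to 0.38.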

Other observations

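Other genes at least as abundant as fon also varied between replicates by as much as apolpp or more, and a few are named here after their values were seen. Hsp68, a chaperone gene, had an SD of log2 CPM within groups of 1.08, Hsp70Bc 1.00, the cuticle gene Lcp4 1.88 and the odorant-binding protein gene Obp56d 1.54. Hsp70 copies are nearly identical, so their counts are uncertain. The signal recognition particle RNA gene 7SLRNA:CR42652 had 61390, 4830 and 3481 counts in dTet replicates 1, 2 and 3 and 76636, 2741 and 20385 counts in control replicates 1, 2 and 3, and so was high in the same 3 libraries as Lsp1gamma. Its neighbouring copy 7SLRNA:CR32864 had 3867, 4238 and 10206 counts in dTet replicates 1, 2 and 3 and 9814, 7171 and 8672 counts in control replicates 1, 2 and 3, without that pattern. Pairs that map to both copies are left out of the counts.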
